A study of Mus musculus with 10 samples.

Results

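The proximal tubule is the first segment of the nephron behind the glomerulus, and its genes were followed here in mouse nephron progenitors, in their cultures and in the other cells of the newborn kidney. The set holds 34 genes, a list of receptors, transporters, enzymes and secreted proteins of this segment, out of 34607 gene names on the array. They were found by gene name among the probes that are not controls, which gave 33 of them. The other, Spink1, is listed under its older name Spink3 and was matched through its RefSeq accession. Together they have 43 of the 55681 probes, and 6 of them have more than 1 probe (Lrp2, Cubn, Slc34a1, Slc17a3, Slc4a4 and Fut9). No measured value entered the choice of names, but the list was drawn up with earlier results of these arrays known.

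RNA was measured on 10 Agilent arrays with a single dye, 2 for each of 5 groups. All 5 groups, the cells that did not glow included, came from Six2-GFP transgenic animals of mixed C57BL6J and ICR background. P0 progenitors were GFP-positive cells of newborn mice, E11.5 progenitors were GFP-positive cells of E11.5 embryos, the 8-day culture and the 19-day culture were E11.5 GFP-positive cells grown for that time in conditioned medium, and P0 non-progenitors were newborn cells without GFP. Cells were separated by flow cytometry, the RNA was amplified as cDNA and labelled with Cy3. Nothing in the labels states a second sort after culture, the source of the conditioned medium, or separate litters or cultures for the replicates, so the p-values measure the spread between these samples, which may be technical. The deposited names give E19.5 for the newborn samples, and the age in the labels, P0, was followed.

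In the living kidney, proximal tubule cells recover most of the filtered glucose, amino acids, phosphate, bicarbonate and small proteins, and they secrete organic anions and drugs. Their brush border carries peptidases, and they make glucose and break down fatty acids. They descend from Six2-positive progenitors through the renal vesicle, and in mouse the nuclear receptor Hnf4a is required for their maturation.

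All levels below are log2 intensities relative to the 75th percentile of the same array. A probe counts as above background where the extraction software marks it as well above background. Levels of different genes come from different probes and are not set against each other. Of the 34 members, 23 and 22 were above background on the P0 progenitor arrays, 12 and 13 on the E11.5 progenitor arrays, 8 and 12 in 8-day culture, 13 and 17 in 19-day culture, and 30 and 32 on the P0 non-progenitor arrays. The summed intensity of the list, in units of the 75th percentile, ran from 9.53 to 10.99 in P0 progenitors, from 4.42 to 5.46 in E11.5 progenitors, from 2.67 to 4.99 in 8-day culture, from 2.74 to 4.27 in 19-day culture and from 184 to 194 in P0 non-progenitors. The list was thus brightest in P0 non-progenitors on both arrays, and the other 4 groups did not overlap with it.

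**Figure D1:**
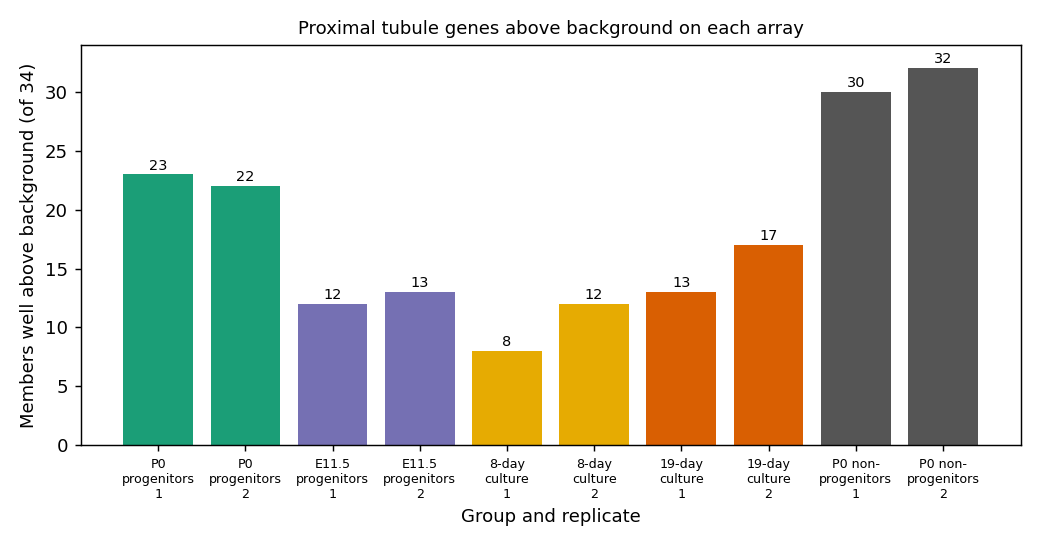
Number of the 34 proximal tubule genes whose brightest probe was well above background on each array, with 1 bar per array and the group and replicate on the horizontal axis. The P0 progenitor bars stand at 22 and 23, the E11.5, 8-day and 19-day bars between 8 and 17, and the P0 non-progenitor bars at 30 and 32.

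The sort was checked first. Six2 had levels of 4.27 and 4.11 in P0 progenitors, 4.70 and 4.82 in E11.5 progenitors, 5.21 and 4.61 in 8-day culture, 1.06 and 2.32 in 19-day culture, and -2.26 and -4.55 in P0 non-progenitors, the last of these not above background. The list of 10 nephron progenitor markers had 10 members above background on each P0 progenitor, E11.5 and 8-day array, 8 and 9 in 19-day culture and 9 to 10 in P0 non-progenitors. Such counts do not show levels. Against E11.5 progenitors, 2 of the 10 fell in 8-day culture and 9 in 19-day culture (limma adjusted p under 0.05), and none rose. Over all tested genes 2.06% and 9.62% fell. Against P0 non-progenitors, 6 rose in P0 progenitors and none fell, where 4.24% of all tested genes rose. Each array had 59305 spots that are not controls, 60.4% to 69.8% of them above background and none saturated. Precision is limited by having 2 arrays a group.

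Of the 34 members, 31 were tested, which required at least 1 group with the brightest probe above background on both of its arrays. Slc34a3, a second renal phosphate transporter, Slc22a8, an organic anion transporter, and Slc6a19, the main neutral amino acid transporter of the brush border, did not meet this. Slc34a3 was above background only on P0 non-progenitor replicate 2 (-3.90), Slc22a8 only on the same array (-3.98) and Slc6a19 only on 8-day replicate 1 (-2.76). Of the 31 tested members, 9 passed through P0 non-progenitors alone (Cubn, Slc5a1, Slc7a9, Slc13a1, Slc13a3, Slc17a1, Slc17a3, Keg1 and Acsm2). Those 9 had to be lower in every other group, and their counts are not support for a difference. Slc22a12 passed through E11.5 progenitors alone, and a fall from them is likewise not support for a difference.

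**Figure D2:**
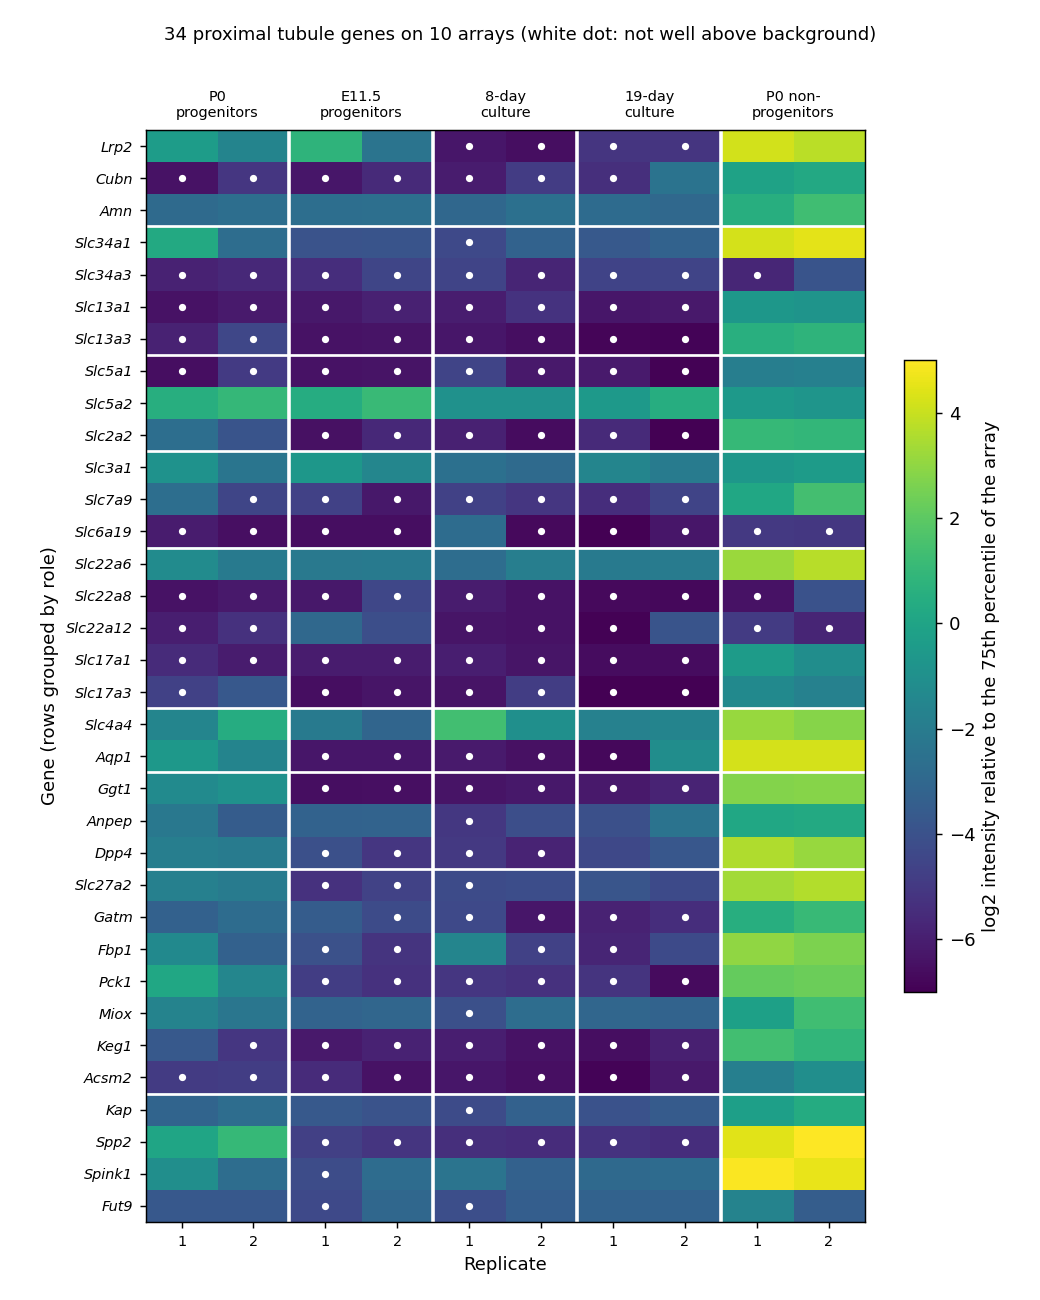
Levels of the 34 members on the 10 arrays as a heat map, with genes in rows grouped by role, arrays in columns grouped by sample type, and colour for the log2 intensity relative to the 75th percentile of the array. White dots mark values not well above background; the P0 non-progenitor columns are the brightest for most rows, while Slc5a2, Slc22a12 and Slc6a19 have their highest value in another group.

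The comparison of P0 progenitors with P0 non-progenitors asked how the genes of this segment differ between the Six2-positive and the Six2-negative cells of newborn kidney. Proximal tubule genes were lower in the progenitors in nearly every role: receptors for filtered protein, transporters, peptidases, enzymes and secreted proteins. Of the 31 tested members, 26 fell and none rose, while 4.16% of the 26212 tested genes fell and 4.24% rose. Of the 26, 9 were tested through P0 non-progenitors alone, so that their direction was fixed by the filter. Of the 22 tested through another group, 17 fell. Taking only the members above background on all 4 arrays of the comparison, 17 of 21 fell, against 2.75% of the 21140 genes that met the same condition. The median log2 difference was -4.17 over the 31 and -3.86 over the 22 tested through another group, against 0.10 over all tested genes. Both progenitor arrays lay below both non-progenitor arrays for 29 members, the 9 with a fixed direction among them, against 23% of all tested genes. Fewer proximal tubule cells and less RNA per cell cannot be told apart in such bulk samples.

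The threshold was an adjusted p of 0.05 from limma, with Benjamini-Hochberg adjustment over all tested genes. The count depended on the number of arrays. It was 15 without P0 progenitor replicate 1, 14 without P0 progenitor replicate 2, 13 without P0 non-progenitor replicate 1 and 11 without P0 non-progenitor replicate 2. The 11 members called in all 4 of these fits were Amn, Slc22a6, Slc27a2, Slc13a1, Slc13a3, Slc17a1, Ggt1, Dpp4, Spp2, Spink1 and Keg1. Of these, Slc13a1, Slc13a3, Slc17a1 and Keg1 were tested through P0 non-progenitors alone, so that their direction was fixed by the filter. Another 8 members (Lrp2, Cubn, Slc17a3, Slc4a4, Gatm, Fbp1, Anpep and Miox) passed in none of the 4. The newborn GFP-negative cells are a mixture, and markers of other cells moved with the members: the erythroid list of 9 genes summed to 11.7 to 16.6 in P0 progenitors and to 644 to 726 in P0 non-progenitors, and 4 of its 7 tested genes fell. The endothelial list of 11 genes summed to 5.48 to 6.90 in P0 progenitors and to 46.4 to 48.0 in P0 non-progenitors, and 9 of 11 fell. Of the tested podocyte, stroma, leukocyte and liver markers, 7 of 9, 8 of 11, 5 of 11 and 3 of 7 fell, and none rose. The part of these cells in the result was not tested.

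**Figure D3:**
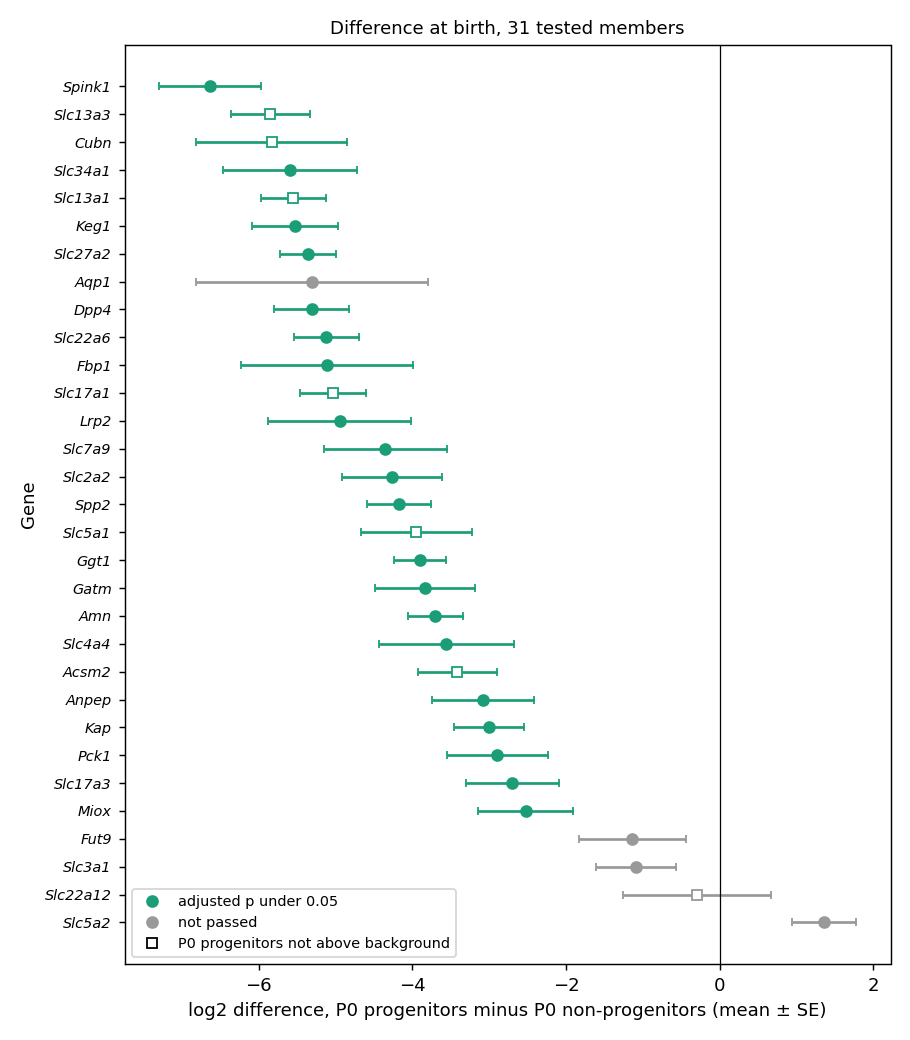
Log2 difference of each of the 31 tested members, P0 progenitors minus P0 non-progenitors, as mean and standard error (2 arrays a group, spread shared over 10 arrays), ordered from the lowest value at the top. Green symbols passed an adjusted p of 0.05, grey symbols did not, and open squares mark genes not above background in P0 progenitors; Spink1 has the lowest value (-6.63) and Slc5a2 is the only gene above 0 (1.36).

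Lrp2 (megalin), the large receptor that takes filtered proteins into the cell, had levels of -0.37 and -1.60 in P0 progenitors, 0.81 and -2.36 in E11.5 progenitors, -6.27 and -6.54 in 8-day culture, -5.14 and -5.16 in 19-day culture, and 4.16 and 3.76 in P0 non-progenitors. It was above background on every fresh array and on none of the 4 cultured arrays. At birth it was 30.8-fold lower in progenitors than in non-progenitors (log2 difference -4.95 ± 0.928 (SE), adjusted p = 0.0193). These values are from the RefSeq probe, at chr2:69262566-69262625 on the minus strand of the mm9 assembly. Both other Lrp2 probes, designed on Ensembl transcripts, were above background on at most 3 of the 10 arrays, and on neither P0 progenitor array. On 8-day replicate 2, 1 of them was above background (-4.09).

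Cubn (cubilin), the partner of megalin that binds vitamin B12 carriers and albumin, had levels of -6.41 and -5.08 in P0 progenitors, neither above background, and of -0.09 and 0.25 in P0 non-progenitors. It was at least 20.5-fold lower in P0 progenitors (adjusted p = 0.0132). Cubn was tested through P0 non-progenitors alone, so that its direction was fixed by the filter. Where a probe was not above background on either array of a group, that group's values were raised to the lowest signal above background on each array, so that the fold is a lower bound. Amn (amnionless), which anchors cubilin in the membrane, had levels of -2.87 and -2.68 in P0 progenitors, -2.69 and -2.60 in E11.5 progenitors, -2.98 and -2.57 in 8-day culture, -2.82 and -2.94 in 19-day culture, and 0.55 and 1.31 in P0 non-progenitors. Outside the P0 non-progenitors its 8 values lay within -2.98 and -2.57, all above background. Amn was 13.0-fold lower in P0 progenitors at birth (adjusted p = 0.00196).

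Slc34a1, the main sodium-phosphate cotransporter of the proximal tubule, had levels of 0.28 and -2.71 in P0 progenitors, -3.95 and -3.88 in E11.5 progenitors, -4.34 and -3.24 in 8-day culture, -3.65 and -3.21 in 19-day culture, and 4.23 and 4.53 in P0 non-progenitors; 8-day replicate 1 was not above background. The 2 P0 progenitor arrays differed more than those of any other group, and both lay below the P0 non-progenitors. The log2 difference was -5.59 ± 0.873 (SE, adjusted p = 0.0104). Its second probe gave -3.01 and -2.88 in P0 progenitors and 1.22 and 1.11 in P0 non-progenitors, a log2 difference of -4.11, with no gap between the P0 progenitor arrays.

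Slc13a1, a sodium-sulphate cotransporter, was at -0.64 and -0.81 in P0 non-progenitors and not above background on the other 8 arrays, where it ran from -6.39 to -5.26. Slc13a3, which carries dicarboxylates, was at 0.55 and 0.83 in P0 non-progenitors and not above background elsewhere, from -6.87 to -4.47. In P0 progenitors the folds were at least 11.7-fold lower for Slc13a1 and at least 31.3-fold lower for Slc13a3. Both genes passed only through the P0 non-progenitors.

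Among glucose transporters, Slc2a2 (Glut2), the basolateral exit, had levels of -2.66 and -3.86 in P0 progenitors and 1.04 and 0.96 in P0 non-progenitors, and was not above background on the 6 other arrays (-6.95 to -5.56). The log2 difference at birth was -4.26 ± 0.648 (SE, adjusted p = 0.00962). Slc5a1 (Sglt1), which takes up glucose late in the segment, was above background in P0 non-progenitors alone, at -1.88 and -1.78, with values from -6.92 to -4.52 elsewhere, and was at least 5.44-fold lower in P0 progenitors (adjusted p = 0.0182). The direction of the Slc5a1 difference was thus fixed by the filter. Slc5a2 (Sglt2), the main glucose transporter of the early segment, went the other way.

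Slc5a2 had levels of 0.51 and 0.99 in P0 progenitors, 0.41 and 1.13 in E11.5 progenitors, -0.95 and -0.95 in 8-day culture, -0.55 and 0.47 in 19-day culture, and -0.49 and -0.72 in P0 non-progenitors. All 10 values were above background, and both P0 progenitor values exceeded both P0 non-progenitor values, which was so for 33% of all tested genes. The log2 difference of 1.36 ± 0.412 (SE) did not pass (adjusted p = 0.0957). The gene has 1 probe, at chr7:135415884-135415943 on the plus strand of mm9.

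The amino acid transporters split. Slc7a9, the light subunit of the cystine transporter, had levels of -2.69 and -4.48 in P0 progenitors, the second not above background, and 0.13 and 1.41 in P0 non-progenitors. It was from -6.22 to -4.53 elsewhere, never above background, and fell at birth by 4.35 on the log2 scale (adjusted p = 0.0182). Slc7a9 passed the filter through P0 non-progenitors alone, which fixed the direction of this fall. Its heavy subunit Slc3a1 was above background on all arrays, with levels of -0.90 and -2.34 in P0 progenitors, -0.65 and -1.49 in E11.5 progenitors, -2.56 and -2.86 in 8-day culture, -1.54 and -2.01 in 19-day culture, and -0.65 and -0.42 in P0 non-progenitors. The log2 difference of Slc3a1 at birth was -1.09 ± 0.526 (SE, adjusted p = 0.292), which did not pass.

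Among the anion transporters, Slc22a6 (Oat1), the basolateral uptake transporter for organic anions, had levels of -1.22 and -2.09 in P0 progenitors, -2.14 and -2.10 in E11.5 progenitors, -2.71 and -1.85 in 8-day culture, -2.08 and -2.02 in 19-day culture, and 3.20 and 3.72 in P0 non-progenitors. Only the P0 non-progenitors stood apart from the other 4 groups. Slc22a6 was 34.7-fold lower in P0 progenitors at birth (log2 difference -5.12 ± 0.42 (SE), adjusted p = 0.00119).

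Slc17a1, an apical anion transporter, was at -0.44 and -1.11 in P0 non-progenitors and from -6.62 to -5.54 elsewhere, never above background. Slc17a3, a related urate transporter, was at -4.69 and -3.72 in P0 progenitors, the first not above background, at -1.30 and -1.71 in P0 non-progenitors, and from -7.02 to -4.81 on the other arrays, none above background. Both fell at birth, Slc17a1 at least 11.3-fold and Slc17a3 6.50-fold. Both were tested through P0 non-progenitors alone, so that the direction was fixed by the filter. A second Slc17a3 probe was not above background on any array. Slc22a12 (Urat1), the apical urate exchanger, was at -2.97 and -4.12 in E11.5 progenitors, both above background, and at -3.90 on 19-day replicate 2. Its other 7 values, from -6.94 to -4.92, were not above background, and it passed in no comparison.

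Slc4a4, the basolateral sodium-bicarbonate cotransporter, had levels of -1.52 and 0.41 in P0 progenitors, -2.10 and -3.11 in E11.5 progenitors, 1.38 and -1.02 in 8-day culture, -1.73 and -1.56 in 19-day culture, and 3.16 and 2.84 in P0 non-progenitors. At birth it fell by 3.55 on the log2 scale (SE 0.873, adjusted p = 0.0493), a call that was lost in all 4 fits with 1 array left out (-4.52 to -2.59), without the filter, without the intensity trend, with robust moderation and with a replicate block. After the P0 non-progenitors, its highest single value was on 8-day replicate 1. A second probe that starts 12 bases further on had a log2 difference of -3.49 at birth. A dimmer probe was above background on 3 of the 10 arrays.

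Aqp1, the water channel of the proximal tubule and also of red cells and many capillaries, had levels of -0.58 and -1.60 in P0 progenitors, -6.29 and -6.26 in E11.5 progenitors, -6.14 and -6.45 in 8-day culture, -6.74 and -1.12 in 19-day culture, and 4.21 and 4.23 in P0 non-progenitors. The E11.5 and 8-day values and 19-day replicate 1 were not above background. The difference at birth, 39.6-fold lower in P0 progenitors, did not pass (log2 difference -5.31 ± 1.51 (SE), adjusted p = 0.0789). The 19-day arrays lay 5.62 apart on the log2 scale. In a fit of the P0 progenitor and P0 non-progenitor arrays alone the adjusted p was 0.00947.

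Ggt1 (gamma-glutamyltransferase), which splits glutathione at the brush border, had levels of -1.26 and -0.94 in P0 progenitors and 2.79 and 2.80 in P0 non-progenitors. On the E11.5 and cultured arrays it lay from -6.54 to -5.81, never above background. Dpp4 (dipeptidyl peptidase 4) had levels of -1.87 and -2.02 in P0 progenitors, -4.08 and -5.12 in E11.5 progenitors, -5.00 and -5.81 in 8-day culture, -4.41 and -3.75 in 19-day culture, and 3.56 and 3.16 in P0 non-progenitors. Its E11.5 and 8-day values were not above background. Anpep (aminopeptidase N) had levels of -2.21 and -3.52 in P0 progenitors, -3.23 and -3.16 in E11.5 progenitors, -5.05 and -4.10 in 8-day culture, -4.06 and -2.44 in 19-day culture, and 0.14 and 0.28 in P0 non-progenitors, all above background but 8-day replicate 1. All 3 peptidases fell at birth, Ggt1 14.9-fold (adjusted p = 0.00134), Dpp4 39.6-fold (adjusted p = 0.00166) and Anpep 8.44-fold (adjusted p = 0.0309).

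The 7 enzymes of the list fell at birth, by 2.52 to 5.53 on the log2 scale, Keg1 and Acsm2 among them. Keg1 and Acsm2 were tested through P0 non-progenitors alone, so that their direction was fixed by the filter. Slc27a2, which activates and imports very long fatty acids, had levels of -1.76 and -2.005 in P0 progenitors, -5.31 and -4.63 in E11.5 progenitors, -4.26 and -4.15 in 8-day culture, -3.82 and -4.32 in 19-day culture, and 3.34 and 3.60 in P0 non-progenitors. Its E11.5 values and 8-day replicate 1 were not above background. Its 40.9-fold difference at birth had the lowest adjusted p of the list (0.000844). Pck1, the enzyme that starts glucose synthesis from oxaloacetate, had levels of 0.15 and -1.48 in P0 progenitors and 2.14 and 2.31 in P0 non-progenitors, and from -6.65 to -4.81 elsewhere, never above background. Fbp1, a later enzyme of glucose synthesis, had levels of -1.30 and -3.26 in P0 progenitors and 3.00 and 2.65 in P0 non-progenitors. Of its other 6 values, only 8-day replicate 1 (-1.55) and 19-day replicate 2 (-4.30) were above background. Pck1 fell 7.42-fold and Fbp1 34.5-fold at birth.

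Gatm, which makes the creatine precursor guanidinoacetate, had levels of -3.27 and -2.78 in P0 progenitors, -3.51 and -4.25 in E11.5 progenitors, -4.37 and -6.25 in 8-day culture, -5.87 and -5.45 in 19-day culture, and 0.53 and 1.08 in P0 non-progenitors. None of its 4 cultured values was above background, nor was E11.5 replicate 2. Miox, which opens the inositol ring, had levels of -1.61 and -2.29 in P0 progenitors, -3.20 and -3.04 in E11.5 progenitors, -4.08 and -2.72 in 8-day culture, -3.04 and -3.20 in 19-day culture, and -0.17 and 1.32 in P0 non-progenitors, all above background but 8-day replicate 1. Keg1, a gene named for its kidney expression, was at -3.66 and -5.12 in P0 progenitors, the second not above background, and at 1.37 and 0.91 in P0 non-progenitors. Acsm2, an acyl-CoA synthetase for medium chains, was at -4.90 and -4.80 in P0 progenitors, neither above background, and at -1.82 and -1.05 in P0 non-progenitors. On the E11.5 and cultured arrays Keg1 lay from -6.57 to -5.87 and Acsm2 from -6.88 to -5.51, with no value above background. At birth Gatm fell 14.3-fold, Miox 5.75-fold, Keg1 46.2-fold and Acsm2 at least 7.16-fold. The Miox call was lost in 6 of 11 other settings and in all 4 fits with 1 array left out (log2 differences -3.27 to -1.77), and the Gatm call in those 4 fits (-4.11 to -3.56).

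Among the secreted proteins, Spink1, a trypsin inhibitor, had levels of -1.06 and -2.69 in P0 progenitors, -4.21 and -2.76 in E11.5 progenitors, -2.38 and -3.26 in 8-day culture, -2.91 and -2.80 in 19-day culture, and 4.91 and 4.59 in P0 non-progenitors, all above background but E11.5 replicate 1. Its 99.0-fold difference at birth was the largest of the members above background in both groups (adjusted p = 0.00212). Spp2, a secreted phosphoprotein, had levels of 0.06 and 1.04 in P0 progenitors and 4.46 and 4.99 in P0 non-progenitors, and was not above background on the 6 other arrays (-5.48 to -4.74). Kap, the androgen-regulated protein of mouse kidney, had levels of -3.14 and -2.71 in P0 progenitors, -3.66 and -3.95 in E11.5 progenitors, -4.24 and -3.28 in 8-day culture, -3.97 and -3.54 in 19-day culture, and -0.25 and 0.39 in P0 non-progenitors, all above background but 8-day replicate 1. Spp2 fell 18.1-fold and Kap 8.00-fold at birth.

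Fut9, which makes the Lewis x sugar that marks proximal tubule brush borders, depended on the probe. Its brightest probe, designed on an Ensembl transcript, had levels of -3.70 and -3.67 in P0 progenitors and -1.62 and -3.48 in P0 non-progenitors, and the difference did not pass (adjusted p = 0.424). Its RefSeq probes were at 1.13 and 0.81, and at -1.06 and -1.02, in P0 non-progenitors, and neither was above background on any other array. With the mean of the 3 probes, Fut9 passed as lower in P0 progenitors (adjusted p = 0.000909), and no size is given because the RefSeq probes were not above background there.

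Of the regulators of this segment, Hnf4a had levels of 2.13 and 1.98 in P0 non-progenitors and lay from -6.98 to -5.14 on the other 8 arrays, never above background. It was at least 80.4-fold lower in P0 progenitors at birth (adjusted p = 0.000451), at least 76.2-fold lower in 8-day culture (adjusted p = 0.000139) and at least 106-fold lower in 19-day culture (adjusted p = 7.56e-05). Hnf4a was tested through P0 non-progenitors alone, so that its direction against them was fixed by the filter. Its calls against them are not support for a difference. It was also called lower in 19-day than in 8-day culture (log2 difference -1.75, adjusted p = 0.0431), where all 4 values were not above background, so no fold is given. It passed neither against E11.5 progenitors in P0 progenitors (adjusted p = 0.81) nor in 8-day (adjusted p = 0.132) or 19-day culture (adjusted p = 0.491).

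Hnf4g was above background on 3 arrays, 1 each of P0 non-progenitors, 8-day culture and 19-day culture, and was not tested. Of the 10 regulators listed, 7 were tested, of which 4 fell at birth, where 4.16% of all tested genes fell. Hnf4a, with its direction fixed by the filter, is among the 4. None passed in P0 progenitors, 8-day culture or 19-day culture against E11.5 progenitors. There 1.92% to 9.62% of all tested genes passed in each direction, so that 7 genes are too few to read the lack of calls.

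The comparison of P0 progenitors with E11.5 progenitors asked how progenitors late and early in kidney development differ. A part of the list was higher at birth: 5 of the 31 tested members rose and none fell, where 2.03% of all tested genes rose and 1.92% fell. They were a secreted protein (Spp2), brush border peptidases (Ggt1 and Dpp4) and 2 enzymes (Pck1 and Slc27a2). Spp2 was at least 27.3-fold higher in P0 progenitors (adjusted p = 0.00189), Pck1 at least 11.8-fold (adjusted p = 0.0158), Ggt1 at least 8.71-fold (adjusted p = 0.000972), Slc27a2 at least 5.06-fold (adjusted p = 0.00856) and Dpp4 at least 4.57-fold (adjusted p = 0.0315). None of the 5 was above background on an E11.5 array, and all were above it on both P0 progenitor arrays. The probes lie on mm9 at chr1:90322944-90323003 for Spp2 (plus strand) and chr2:62170062-62170121 for Dpp4 (minus strand).

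All 5 were also called lower than P0 non-progenitors, so that their place between E11.5 progenitors and P0 non-progenitors follows from the 2 calls. Of the 10 members above background on all 4 arrays of this comparison, none passed; Lrp2 differed by -0.21 ± 0.928 on the log2 scale (SE, adjusted p = 0.925) and Amn by -0.13 ± 0.357. Aqp1 had at least an 8.76-fold difference that did not pass (adjusted p = 0.115), Slc2a2 one of at least 1.95-fold (adjusted p = 0.0632), and Slc34a1 a log2 difference of 2.70 ± 0.873 (SE, adjusted p = 0.149). The second Slc34a1 probe, above background on all 10 arrays, gave 0.16. Both P0 arrays exceeded both E11.5 arrays for 21 members, against 20.1% of all tested genes, and the median log2 difference was 1.17, against -0.12 over all tested genes.

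The count of 5 was 2 without P0 progenitor replicate 1 and 3 without E11.5 progenitor replicate 2; Ggt1 and Spp2 passed in all 4 fits with 1 array left out. Markers of later tubule segments and of the collecting duct, taken as 1 list, moved the same way. Of 15 genes of the loop, distal tubule and collecting duct, 7 rose and none fell, and the list summed to 10.5 to 17.2 in P0 progenitors, 1.18 to 1.29 in E11.5 progenitors and 112 to 121 in P0 non-progenitors. Umod, the defining gene of the thick ascending limb, had levels of -0.44 and -0.80 in P0 progenitors and of -6.25 and -6.21, not above background, in E11.5 progenitors. Ret and Kcnj1 of that list were not above background in P0 progenitors. The renal vesicle list summed to 59.8 to 64.1 in P0 progenitors and 14.7 to 17.5 in E11.5 progenitors. The part of either in the result was not tested.

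**Figure D4:**
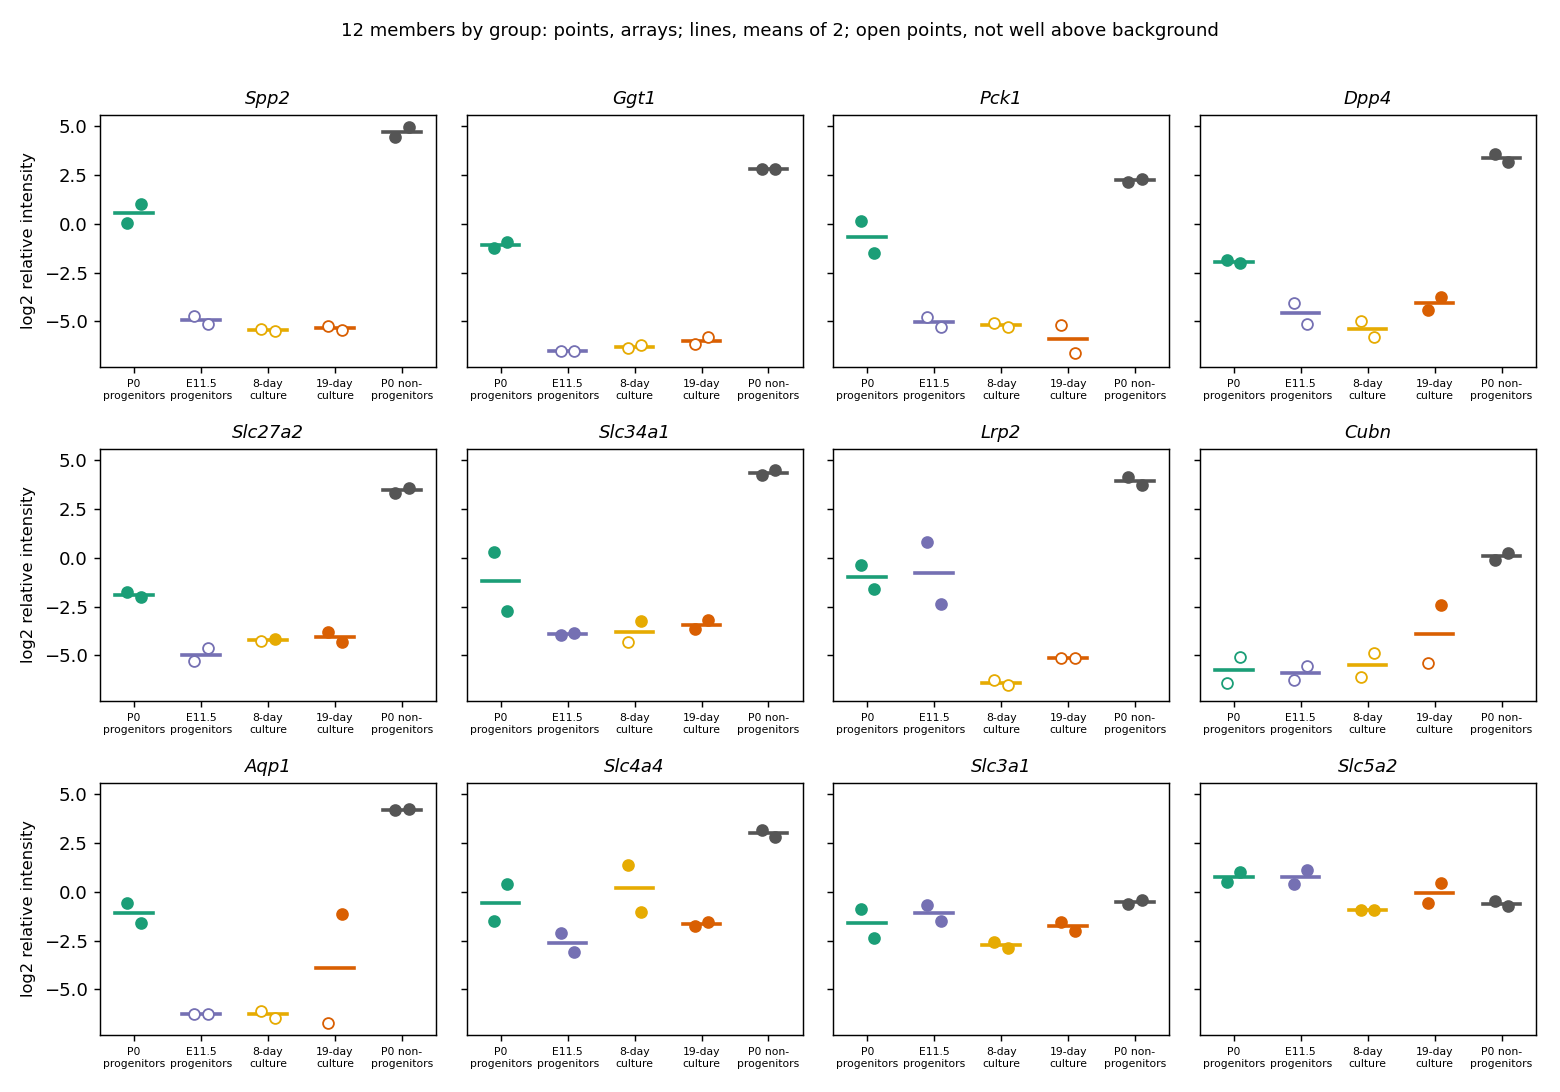
Levels of 12 members by group, in log2 units relative to the 75th percentile of the array; each point is an array, lines are means of 2 arrays, and open points are not well above background. Spp2, Ggt1, Pck1, Dpp4 and Slc27a2 sit in P0 progenitors between the E11.5 progenitors and the P0 non-progenitors, Lrp2 is not above background in either culture, and Aqp1 and Cubn are above background on 1 of the 2 arrays of the 19-day culture.

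None of the tested members rose in culture at either time, against the E11.5 progenitors that were put in. In 8-day culture against E11.5 progenitors, 1 of 31 tested members fell (Lrp2) and none rose, where 2.06% of all tested genes fell and 2.77% rose. In 19-day culture against E11.5 progenitors the same gene fell and none rose, where 9.62% of all tested genes fell and 7.26% rose. In 19-day against 8-day culture limma called none of the 31, where 2.68% of all tested genes rose and 5.42% fell; at an unadjusted p of 0.05 it was 1 of the 31. The median log2 differences of the members were -0.11, -0.18 and -0.00, close to the 0.02, 0.01 and -0.01 of all tested genes. In the same order, only 5, 9 and 6 of the members were above background on all 4 arrays compared. The others had at least 1 value not above background, so that the medians cannot show that the members stayed unchanged. A member that did not pass may still have changed by several fold, since 2 arrays a group give wide errors.

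Lrp2 was at least 10.7-fold lower in 8-day culture (adjusted p = 0.0225) and at least 14.9-fold lower in 19-day culture (adjusted p = 0.0182) than in E11.5 progenitors. Its E11.5 arrays lay 3.17 apart on the log2 scale, and both exceeded all 4 cultured values. Both other Lrp2 probes were not above background in E11.5 progenitors. Their log2 differences were -0.15 and 0.45 in 8-day culture and -1.16 and -0.52 in 19-day culture, so that the fall rests on the brightest probe. The 8-day call did not pass without either 8-day array, nor the 19-day call without either 19-day array (adjusted p up to 0.0802). Slide 1 held the fresh arrays and 8-day replicate 1, and slide 2 held 8-day replicate 2 and both 19-day arrays. With slide as a block neither passed (adjusted p = 0.0779 at 8 days and 0.23 at 19 days), nor within slide 1, where 8-day replicate 1 was set against the E11.5 arrays (adjusted p = 0.104).

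In the 19-day culture, 4 members were above background on replicate 2 and not on replicate 1: Cubn, Aqp1, Slc22a12 and Fbp1. Cubn had levels of -5.38 and -2.42 in 19-day culture, against -6.11 and -4.87 in 8-day culture and -6.27 and -5.56 in E11.5 progenitors. Its second probe was at -3.47 and -4.35 in 19-day culture, both above background, against -6.18 and -6.51 in 8-day culture and -6.34 and -6.30 in E11.5 progenitors. The brightest probe did not pass (adjusted p = 0.216 against E11.5 progenitors). The mean of both probes passed as higher against E11.5 progenitors (adjusted p = 0.013) and against 8-day culture (adjusted p = 0.0308), and no size is given because neither probe was above background in those groups.

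Without 19-day replicate 1, Aqp1 (adjusted p = 0.00372) and Cubn (adjusted p = 0.0465) both passed as higher against E11.5 progenitors, where neither was above background, and Aqp1 passed against 8-day culture. Without 19-day replicate 2 neither did. Slc22a12 was then lower, at -6.94 and not above background on 19-day replicate 1. It was tested through E11.5 progenitors alone, so that a fall from them is not support for a difference. The endothelial list summed to 8.69 on 19-day replicate 1 and to 7.39 on replicate 2, and the erythroid list to 0.727 and 1.12. Slc5a12, a lactate transporter outside the 34, also differed between these arrays, at -5.89 and not above background on replicate 1 and -0.59 on replicate 2. The renal stroma list summed to 169 to 229 in 19-day culture, 22.8 to 35.8 in 8-day culture and 16.8 to 27.0 in E11.5 progenitors, and its part in these values was not tested.

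Among members that did not pass in either culture, Slc5a2 was lower in 8-day culture on both arrays (log2 difference -1.71 ± 0.412 (SE), adjusted p = 0.0615), as was Slc3a1 (-1.64 ± 0.526, adjusted p = 0.132). Slc4a4 was higher on both 8-day arrays (2.78 ± 0.873, adjusted p = 0.127). Amn and Slc22a6 differed from E11.5 progenitors by at most 0.24 on the log2 scale at either time.

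Against P0 non-progenitors, both cultures were lower for most members. In 8-day culture 27 of 31 tested members fell and none rose, where 5.52% of all tested genes fell and 7.66% rose. In 19-day culture 27 fell and none rose, where 4.99% of all tested genes fell and 4.41% rose. In each culture, 9 of the 27 were tested through P0 non-progenitors alone, so that their direction was fixed by the filter. Of the 22 tested through another group, 18 fell in each culture. Among those 22, Slc2a2, Aqp1, Gatm, Fbp1, Pck1, Ggt1 and Spp2 passed the filter through the P0 groups alone and through no culture. The members that did not pass in 8-day culture were Slc5a2, Slc22a12, Slc4a4 and Fut9, and in 19-day culture Slc5a2, Slc22a12, Slc3a1 and Fut9. The median log2 differences over the 31, those 9 included, were -5.65 and -5.73, against 0.25 and 0.21 over all tested genes. Of the members above background on all 4 arrays, 4 of 6 fell in 8-day culture, against 3.32% of the genes that met that condition, and 10 of 13 in 19-day culture, against 3.21%. With slide as a block the 19-day count was 16.

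Spp2 was at least 486-fold lower in 8-day culture and at least 676-fold lower in 19-day culture than in P0 non-progenitors, Lrp2 at least 285-fold and at least 397-fold, and Ggt1 at least 128-fold and at least 178-fold. Slc34a1 was 287-fold lower in 8-day culture (adjusted p = 0.00126), where replicate 1 was not above background, and 224-fold lower in 19-day culture (adjusted p = 0.00229). These sizes depended on the probe, with log2 differences of -8.17 and -7.81. The second Slc34a1 probe, above background on all 10 arrays, gave -4.12 and -4.01. Slc27a2 was 204-fold lower in 8-day culture, where replicate 1 was not above background, and 186-fold lower in 19-day culture. Aqp1 was at least 341-fold lower in 8-day culture (adjusted p = 0.00409). In 19-day culture it passed as lower (adjusted p = 0.0169) with 1 of 2 arrays above background. With 1 array left out its log2 difference ran from -10.96 to -5.34, and the call was lost without either P0 non-progenitor array. Slc3a1 fell by 2.18 on the log2 scale in 8-day culture (adjusted p = 0.034), a call lost in all 4 fits with 1 array left out, and did not pass in 19-day culture (log2 difference -1.24, adjusted p = 0.186).

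A list of 64 other proximal tubule genes was read beside the members; 60 were tested. At birth 29 fell and none rose in P0 progenitors, where 4.16% of all tested genes fell and 4.24% rose. The median log2 difference was -2.36, against 0.10 over all tested genes. Among the called genes with the largest change were Mep1b, a meprin subunit of the brush border (123-fold lower), Hao2, a peroxisomal oxidase (at least 21.4-fold), Slc5a12 (78.8-fold), Slc22a19, an organic anion transporter (at least 20.4-fold), and Mep1a, the other meprin subunit (at least 47.0-fold). Against E11.5 progenitors, 1 rose in P0 progenitors, Tmem27 (collectrin, a partner of amino acid transporters, at least 15.5-fold), and 1 fell, Slc23a1, a vitamin C transporter (9.12-fold). Over all tested genes 2.03% rose and 1.92% fell, so that 1 of 60 each way did not exceed these shares. Against P0 non-progenitors, 33 fell in 8-day and 33 in 19-day culture, and none rose in either. Over all tested genes 5.52% fell and 7.66% rose in 8-day culture, and 4.99% fell and 4.41% rose in 19-day culture.

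In 19-day culture against E11.5 progenitors, 2 of the 60 rose and 4 fell, where 7.26% of all tested genes rose and 9.62% fell. Dpep1, a dipeptidase of the brush border, had levels of -0.67 and 0.81 in 19-day culture, against -3.27 and -3.48 in E11.5 progenitors. All 4 values were above background and the groups did not overlap. Dpep1 was 10.8-fold higher than in E11.5 progenitors (adjusted p = 0.0207).

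The genes that fell in 19-day culture were Pth1r, the parathyroid hormone receptor (8.25-fold lower, adjusted p = 0.0161), Slc23a1 (5.58-fold), Slc9a3r1, a scaffold of brush border transporters (5.45-fold), and Pdzk1, a related scaffold (2.93-fold). In 8-day culture against E11.5 progenitors, none of the 60 rose and Slc23a1 alone fell, where 2.77% of all tested genes rose and 2.06% fell. In 19-day against 8-day culture 1 rose and 2 fell (Pdzk1 and Pth1r), where 2.68% of all tested genes rose and 5.42% fell.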

How the data were processed

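Per the labels' protocols, RNA from sorted or cultured cells (RNeasy Plus Micro) was amplified (Ovation Pico WTA V2) and labelled with Cy3. The authors deposited scanner output of Agilent Feature Extraction 11.5.1.1, per the submitters' processing notes. Its processed signals are intensities after background subtraction, per the file headers, with no scaling between arrays.

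Control spots and outlier spots were left out. The log2 intensity minus the array's 75th percentile was averaged over spots of a probe. Of 55681 probes, 28026 were named through RefSeq accessions, 3418 through a current symbol, 295 through a synonym and 23942 by the name in the files. A gene was its probe with the highest mean, tested where both arrays of some group had it above background (26212 of 34607 names). Probe positions come from the files (mm9).

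limma 3.58.1 in R 4.3.3 fitted a mean per group to all 10 arrays with an intensity trend, 2.49 prior and 5 residual degrees of freedom. P-values were adjusted by Benjamini-Hochberg, at 0.05, within each of 7 comparisons, 2-sided. Comparisons with the same samples on one side are not independent. The procedure was tested on simulated data.

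The members and lists were chosen with earlier results of these data known. By rule, every member is named, array values are given for members that passed and for Lrp2, Cubn, Slc34a1, Aqp1, Slc5a2, Slc22a6 and Dpp4, with the largest falls of the other proximal tubule list at birth and up to 3 each way in 19-day culture; Pdzk1, Tmem27, and the mention of Slc5a12 in culture, Umod, Ret and Kcnj1, were added after their values were seen. Whether replicate numbers pair the samples is not stated in the labels, and the correlations of deviations (between -0.01 and 0.03) cannot settle it. Some genes that the rule would name are not reported here.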

Additional observations from a re-analysis of the deposited data

How the results depend on the processing

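No member changed sign among those called. Of 3228 other values recomputed for single members, 3061 kept their side of the threshold, 145 lost it, 22 gained it and none was reversed. P0 progenitors against P0 non-progenitors (26) gave 22 to 28 under the other fits that keep both arrays of each group, but 3 under a filter on all arrays, which leaves 5 members, and 11 to 15 with 1 array left out. P0 progenitors against E11.5 progenitors (5) gave 3 under normexp, 3 with the compared groups alone, 0 under the all-array filter and 2 to 5 with 1 array left out. 8-day culture against E11.5 progenitors (1) gave 0 under normexp, the all-array filter, the mean of probes, a floor for low values, a slide block, slide 1 alone and the compared groups alone, and 0 to 1 with 1 array left out. 19-day culture against E11.5 progenitors (1) gave 0 under normexp, the all-array filter, a slide block and the compared groups alone, 2 with the mean of probes and 1 to 2 with 1 array left out. 19-day against 8-day culture (0) gave 1 with the mean of probes and 0 to 1 with 1 array left out. Against P0 non-progenitors, the all-array filter gave 3 for 8-day and 3 for 19-day culture (27 each), a slide block gave 16 for 19-day culture, and leaving out 1 array gave 23 to 26 and 21 to 25. With a replicate block the counts in the same order were 24, 5, 1, 1, 0, 27 and 27, so that the block changed none by over 1.5 times. The all-array filter tests fewer members; otherwise the cause was not tested.

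Over all genes, calls at birth numbered 2202 (1112 higher), against 1695 (572 higher) under quantile normalization, 1440 (977 higher) under the all-array filter, 1267 without an intensity trend and 610 to 863 with 1 array left out. P0 against E11.5 progenitors had 1037 (533 higher), against 943 (623 higher) under quantile normalization, 450 without a trend, 443 with the groups alone and 115 to 872 with 1 array left out. 8-day culture against E11.5 progenitors had 1265, against 541 without a trend, 631 with a slide block, 689 on slide 1, 369 to 892 with 1 array left out and 0 with the groups alone. 19-day culture against E11.5 progenitors had 4426, against 1493 with a slide block, 1300 with the groups alone and 2373 to 3401 with 1 array left out. 19-day against 8-day culture had 2123 (703 higher), against 1659 (773 higher) under quantile normalization, 762 without a trend, 881 to 1763 with 1 array left out and 0 on slide 2 or with the groups alone. 8-day culture against P0 non-progenitors had 3456 (2008 higher), against 2706 (1067 higher) under quantile normalization, 2292 with the groups alone and 1871 to 2765 with 1 array left out. 19-day culture against P0 non-progenitors had 2464, against 1518 under the all-array filter, 539 with a slide block, 1464 with the groups alone and 1001 to 1695 with 1 array left out. Signals near background set the limit for members listed as not above background, whose folds are bounds.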
